A study of Mus musculus with 3 samples.

Results

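The aquaporins are a family of membrane channels, described here through 8 genes, Aqp1, Aqp3, Aqp4, Aqp5, Aqp7, Aqp8, Aqp9 and Aqp11, of the 19935 genes that could be compared in a microarray series on NMuMG, a mouse epithelial line that came from mammary gland. The genes were taken by symbol. The family was chosen by its measured log2 values on these arrays, because Aqp1 was much higher in both MAFK clones than in mock cells and Aqp9 differed between the clones. The same values are therefore given as a description, with no test. The MAFK groups were stable clonal lines that carried FLAG-tagged MafK in the vector pCAGIP, clone 10 (MAFK, 1 array) and clone 4 (MAFK, 1 array), and the mock cells carried pCAGIP alone (1 array). All cells grew in medium with 10% serum and 1 µg/ml puromycin, and 100 ng of total RNA was labelled per array. Nothing in the labels says that the mock line was cloned or that clones were grown apart, so an effect of MAFK and one of picking clonal lines cannot be told apart.

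Aquaporins sit in the plasma membrane or in inner membranes and let water cross along an osmotic gradient. The aquaglyceroporins, among them Aqp3, Aqp7 and Aqp9, also pass glycerol and other small uncharged solutes, and the mammary gland is a secretory tissue in which several aquaporins are known to be made. MAFK is a small MAF protein that binds MAF recognition elements in DNA as a pair with itself or with CNC factors such as NRF2 and BACH1.

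Values are log2 intensities from RMA, a normalization that also summarises the probes of each set. The array medians were 6.93 in clone 10, 6.92 in clone 4 and 6.89 in mock. A fold is 2 to the power of a difference of such values, and no detection calls were used, so a value under the array median may be near background. Each of the 12 aquaporin genes measured, the 8 and 4 others, had 1 probe set. Among epithelial markers of the labelled cells, Krt8 read 13.31 in clone 10, 13.18 in clone 4 and 13.67 in mock. Of 10 epithelial markers, 5 lay above the array median on each array. Epcam, Esrp1 and Grhl2 lay below it on all 3 arrays, and Cdh1, the gene of E-cadherin, read 6.64 in clone 10, 6.85 in clone 4 and 11.35 in mock.

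The promoters of the 2 genes the values turn on are shown first, each as 250 bases before and 50 after an annotated start, from RefSeq on GRCm38.p6 and read 5′ to 3′ on the gene's strand. A single capital marks the annotated start. The run of capitals in the second Aqp9 window marks a match to TGANTCA, the site of AP-1, which is also the core of a MAF recognition element. The Aqp1 window is chr6:55336049-55336348 on the plus strand, and the Aqp9 windows are chr9:71163240-71163539 and chr9:71162584-71162883, both on the minus strand.
Aqp1: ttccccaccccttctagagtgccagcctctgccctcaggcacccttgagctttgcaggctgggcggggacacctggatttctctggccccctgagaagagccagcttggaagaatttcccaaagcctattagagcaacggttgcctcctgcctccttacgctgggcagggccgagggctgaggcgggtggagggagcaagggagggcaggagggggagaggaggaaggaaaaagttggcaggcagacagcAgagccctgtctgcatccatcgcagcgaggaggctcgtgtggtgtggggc
Aqp9 first start: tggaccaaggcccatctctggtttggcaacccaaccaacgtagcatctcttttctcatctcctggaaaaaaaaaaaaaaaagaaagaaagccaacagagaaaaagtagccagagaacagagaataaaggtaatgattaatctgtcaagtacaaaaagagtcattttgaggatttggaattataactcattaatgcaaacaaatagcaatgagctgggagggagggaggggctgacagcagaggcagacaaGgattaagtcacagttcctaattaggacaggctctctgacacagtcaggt
Aqp9 second start: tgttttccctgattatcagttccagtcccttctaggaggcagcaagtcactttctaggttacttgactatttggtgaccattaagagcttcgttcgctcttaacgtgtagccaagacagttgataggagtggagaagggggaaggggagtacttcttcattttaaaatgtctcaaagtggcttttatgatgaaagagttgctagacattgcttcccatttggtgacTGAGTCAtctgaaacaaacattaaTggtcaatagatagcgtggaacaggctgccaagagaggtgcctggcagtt

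A search on both strands of these windows covered 3 patterns: TGCTGA, the outer part of a MAF recognition element, TGACNNNGC, the core of the antioxidant response element, and TGANTCA. A TGACNNNGC or TGANTCA match may overlap the end of a TGCTGA match. The Aqp1 window held none of them, and neither did the first Aqp9 window. The second Aqp9 window held TGANTCA at -24 from its start, a pattern found in 7.81% of all 32851 promoter windows. Among 9 windows of 7 of the 8 genes, TGCTGA occurred in 2, those of Aqp3 at -44 and Aqp11 at -41, against 19.5% of all windows, and TGACNNNGC in 0, against 12.4%. Only these letters in these windows were searched. Base composition differed widely, from 41.3% G and C in the first Aqp9 window and 62.7% in the Aqp1 window to 79.7% in the Aqp5 window, with a median of 52.7% over all windows.

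Aqp1, the water-selective channel of red cells, kidney tubules and endothelium, read 11.69 in clone 10, 11.85 in clone 4 and 6.92 in mock. Both clones thus lay far above mock and close to each other, and the mock value was at about the array median. The mean was 11.77 ± 0.12 (SD, n = 2) with MAFK, 28.8-fold above mock. The fold was 27.2 in clone 10 and 30.5 in clone 4. Ranked by the smaller of the 2 clones' differences, Aqp1 was number 4 among all genes above mock in both clones. Of the 8 genes it alone differed by 2-fold or more from mock in both clones, where 3% of all genes were, 1.19% higher and 1.81% lower. The array holds the RNA of whole cultures, so a higher value in every cell and a larger share of cells making the transcript cannot be told apart.

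Aqp5, the water channel of the apical membrane of salivary, lacrimal and airway gland cells, had a smaller difference in the same direction. It read 10.00 in clone 10, 9.78 in clone 4 and 9.06 in mock. All 3 values lay above the array medians, by 3.07 in clone 10, 2.85 in clone 4 and 2.17 in mock. The mean of 9.89 ± 0.16 (SD, n = 2) was 1.77-fold above mock, 1.91-fold in clone 10 and 1.64-fold in clone 4. Aqp5 was thus under 2-fold in both clones. At 1.5-fold or more above mock in both clones, a rule it met, were 2.54% of all genes, those past 2-fold included. Across all genes, 1.93% were at least as far above mock in both clones.

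Aqp9, an aquaglyceroporin that takes up glycerol in liver cells and is also made by neutrophils, separated the clones. It read 6.57 in clone 10, 8.42 in clone 4 and 6.06 in mock. Clone 10 stood 1.42-fold above mock and clone 4 stood 5.13-fold above it, with the clone 10 and mock values both below the array median. At 2-fold or more above mock were 1.46% of all genes in clone 10 and 1.53% in clone 4. The clone 10 value minus the clone 4 value was -1.85 on the log2 scale, so that clone 4 was 3.60-fold higher. It was the 1 aquaporin gene at least 2-fold apart between the clones, where 0.441% of all genes were, 0.221% in the direction of Aqp9. Among all genes it ranked number 6 for a value lower in clone 10 than in clone 4, and number 11 by size in either direction. The mean of the clones, 7.49 ± 1.31 (SD, n = 2), stands for neither of them. With 1 array for each clone the difference has no replicate check.

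**Figure D1:**
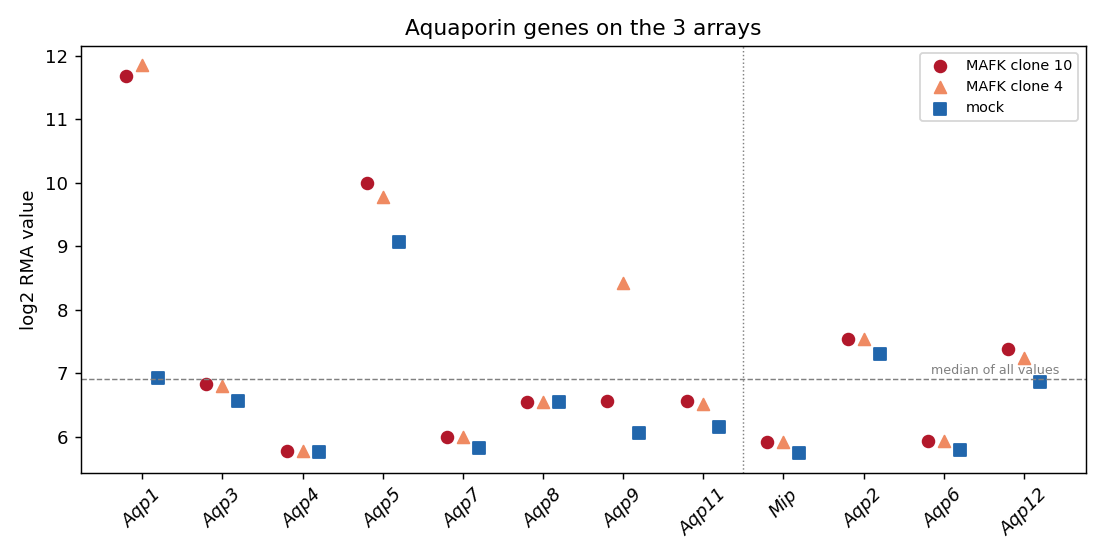
Log2 RMA value (y axis) of each aquaporin gene (x axis) on the arrays of MAFK clone 10 (circles), MAFK clone 4 (triangles) and mock (squares), 1 point per array, with the 4 aquaporin genes outside the described 8 right of the dotted line and the median of all values dashed. Aqp1 stands apart from mock in both clones at 11.69 and 11.85 against 6.92, and Aqp9 in clone 4 at 8.42.

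The other aquaglyceroporins differed little. Aqp3, which passes glycerol and water in skin and in the basolateral membrane of the kidney collecting duct, read 6.83 in clone 10, 6.80 in clone 4 and 6.56 in mock. Both clones were slightly above mock, 1.20-fold in clone 10 and 1.18-fold in clone 4, with all values below the array medians. Aqp7, through which fat cells release glycerol, read 6.0 in both clones and 5.82 in mock. Its values lay about 1 log2 unit under the medians, by -0.93 in clone 10, -0.93 in clone 4 and -1.07 in mock.

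Aqp11, an aquaporin of the endoplasmic reticulum whose loss gives mice cystic kidneys, was modestly higher. It read 6.57 in clone 10, 6.52 in clone 4 and 6.16 in mock, all below the array medians. The mean of 6.54 ± 0.04 (SD, n = 2) was 1.31-fold above mock, and 5.22% of all genes were at least as far above mock in both clones. Aqp4, the water channel of astrocyte end feet, read 5.77 in both clones and 5.76 in mock. Aqp8, a channel of the gut, pancreas and liver that also passes ammonia, read 6.55 on all 3 arrays. Neither gene gave a sizeable difference, and both lay below the array medians.

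Of the 8 genes, 7 were above mock in both clones by any amount, 0 below and 1 equal, where 33.7% of all genes were above in both. The median difference of the 8 was 0.34 in clone 10 and 0.30 in clone 4, and that of all genes was 0 in both clones. Equal values are common on these arrays: 3 of the 8 genes, Aqp4, Aqp7 and Aqp8, had the same value in both clones, as had 55.5% of all genes. When the arrays were quantile normalized a second time, Aqp4 and Aqp8 lay below mock, at -0.01 and -0.04 on the log2 scale for the mean of the clones, and 6 of the 8 above it, where 44.3% of all genes were above in both clones. The sign of these 2 genes is thus not settled.

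The 4 aquaporin genes outside the described 8 gave no difference of 1.5-fold. Aqp12, an inner-membrane channel of pancreatic acinar cells, read 7.38 in clone 10, 7.25 in clone 4 and 6.87 in mock, 1.43-fold and 1.30-fold above mock in these clones. Aqp2, the vasopressin-regulated water channel of the kidney, read 7.54 in both clones and 7.31 in mock. Mip, the lens fibre aquaporin, read 5.92 in both clones and 5.74 in mock, and Aqp6, of vesicles in kidney intercalated cells, 5.94 in both clones and 5.79 in mock. All 4 were above mock in both clones by 1.11-fold to 1.43-fold, where 33.7% of all genes were above in both by any amount. Mip and Aqp6 lay below the array median on each array, so their values may be near background.

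**Figure D2:**
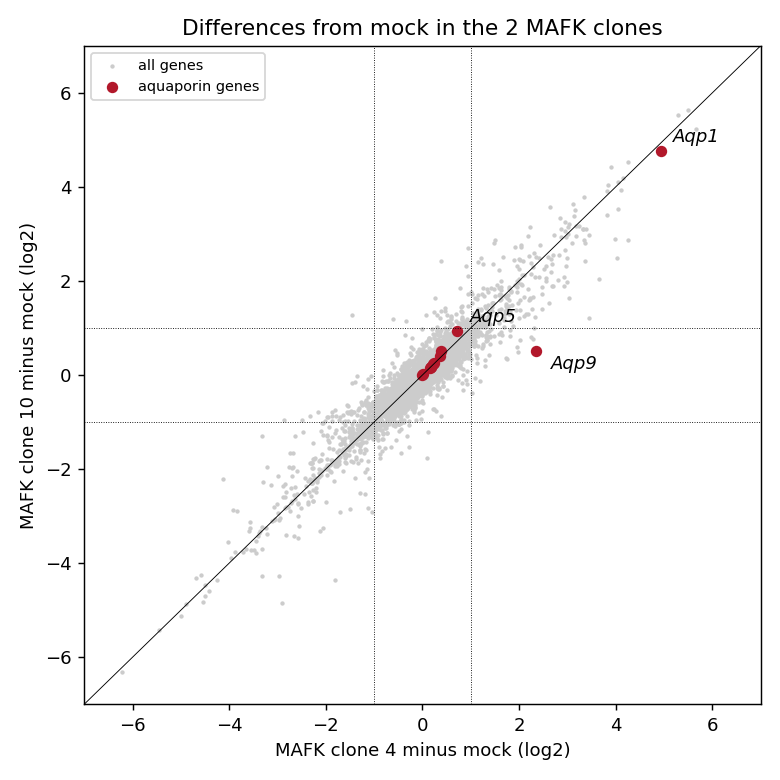
Difference from mock on the log2 scale in MAFK clone 10 (y axis) and MAFK clone 4 (x axis) for all 19935 genes (grey) and the 12 aquaporin genes (red), with the diagonal drawn and dotted lines at 2-fold. Both axes use the same mock array. Aqp1 lies at 4.77 in clone 10 and 4.93 in clone 4, close to the diagonal, and Aqp9 at 0.51 in clone 10 and 2.36 in clone 4, away from it. Aqp5 lies at 0.94 in clone 10 and 0.72 in clone 4, and the others nearer the origin.

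Values of the genes beside the aquaporins on the chromosome are given for comparison. The order of genes was taken from the GRCm38.p6 gene table, with 5 measured genes on each side. Around Aqp1 on chromosome 6, 0 of 10 neighbours were 2-fold apart from mock in both clones, as 3% of all genes were. The nearest neighbours were Mindy4, at 6.78 on all arrays, and Ghrhr, a hormone receptor gene, at 7.56 in clone 10, 7.58 in clone 4 and 7.33 in mock. Differences of the 10 neighbours ran from -0.28 to 0.24 in clone 10 and from -0.01 to 0.25 in clone 4.

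Around Aqp9 on chromosome 9, 0 of 10 neighbours were 2-fold apart from mock in both clones, as 3% of all genes were, and 0 between the clones, as 0.441% were. Its nearest neighbours were Adam10, a membrane protease gene, at 9.98 in clone 10, 9.97 in clone 4 and 10.52 in mock, and Aldh1a2, a retinoic acid synthesis gene, at 5.62 on all 3 arrays. Differences of the 10 neighbours from mock ran from -0.54 to 0.53 in clone 10 and from -0.55 to 0.39 in clone 4.

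Aqp5 lies between Aqp2 and Aqp6 on chromosome 15, and Aqp3 lies next to Aqp7 on chromosome 4. In the first cluster Aqp5 was 1.77-fold above mock, Aqp2 1.17-fold and Aqp6 1.11-fold. Racgap1, a gene of cell division on the far side of Aqp6, read 11.95 in clone 10, 11.69 in clone 4 and 10.76 in mock. Gpd1, within 5 measured genes of Aqp5, was 2.04-fold lower in both clones. Of the 10 neighbours of Aqp5, Gpd1 alone lay below mock. All others were above mock in both clones by any amount, as 33.7% of all genes were. Differences of the 10 ran from -1.03 to 1.19 in clone 10 and from -1.03 to 0.92 in clone 4. A cause shared by this stretch was not tested. Of the 10 neighbours of Aqp11 on chromosome 7, 1 was 2-fold apart from mock in both clones, as 3% of all genes were. It was the myosin gene Myo7a, at 6.91 in clone 10, 6.67 in clone 4 and 8.31 in mock.

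**Figure D3:**
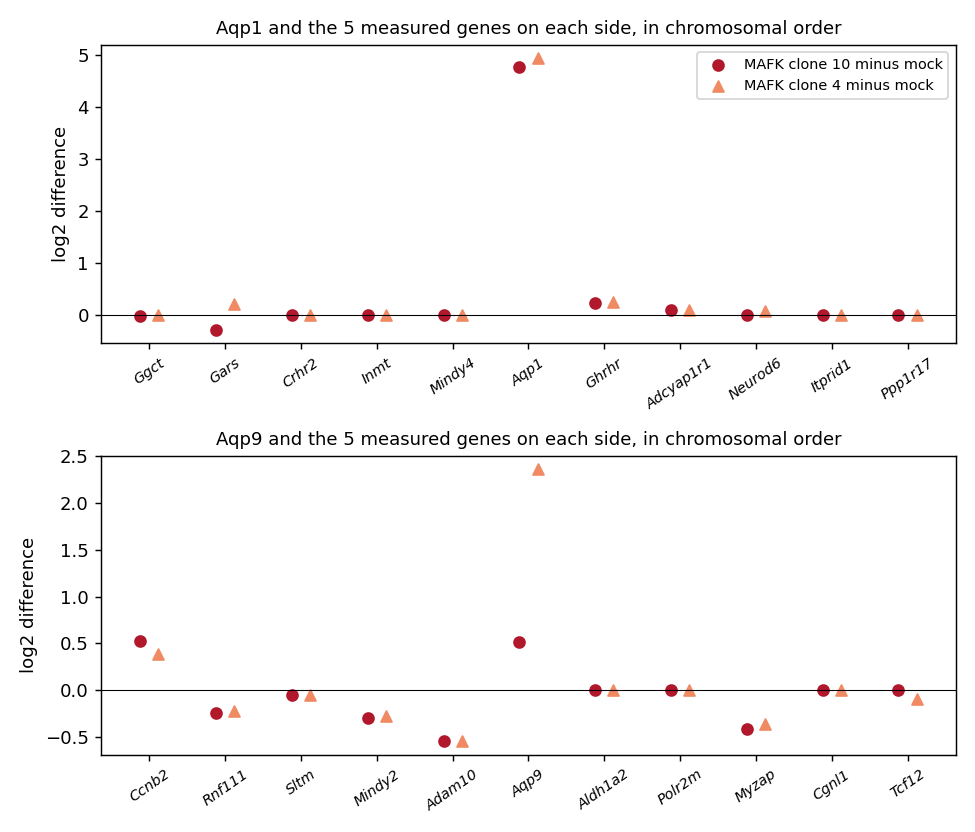
Log2 difference from mock (y axis) of Aqp1 (top) and Aqp9 (bottom) with the 5 measured genes on each side in chromosomal order (x axis), in MAFK clone 10 (circles) and MAFK clone 4 (triangles). The neighbours of Aqp1 stay between -0.28 and 0.25 while Aqp1 is at 4.77 and 4.93.

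The genes with the pattern most like Aqp1 were found by the Euclidean distance between pairs of log2 differences from mock, over the 3 arrays. They were Adgre5 (distance 0.71), Fscn1 (0.84), Scd1 (0.87), F2r (0.96) and Gpnmb (1.04). Adgre5 is an adhesion receptor gene, Fscn1 encodes an actin bundler, Scd1 a fatty acid desaturase, F2r the thrombin receptor and Gpnmb a membrane glycoprotein. Adgre5 read 10.40 in clone 10, 10.14 in clone 4 and 5.87 in mock, and F2r 10.29 in clone 10, 10.25 in clone 4 and 6.09 in mock. Both were far above mock in both clones, which their choice by distance from Aqp1 requires. Their mock values lay below the array median, while that of Aqp1 was at about the median.

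For Aqp9 the nearest were Pdxk (0.27), Psca (0.32), Robo1 (0.39), Lcn2 (0.41) and Itga1 (0.41). Lcn2, the gene of the iron-siderophore binding protein lipocalin 2, read 10.90 in clone 10, 12.19 in clone 4 and 10.16 in mock. Pdxk, the gene of pyridoxal kinase, read 8.28 in clone 10, 9.79 in clone 4 and 7.51 in mock. Both were highest in clone 4, with clone 10 nearer to mock, a pattern set by the choice of these genes. All 10 of these genes share the 3 arrays and the single mock with the aquaporins, and the distances describe these arrays only.

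Companion genes, which work with aquaporins or act in the same processes, were followed in 6 lists of ion transport, glycerol and urea handling, osmotic response, trafficking, transcription factors and peroxide production, of which 108 of 119 genes were measured. Here "rose" and "fell" mean at least 2-fold in both clones with an adjusted p under 0.05 in limma's moderated test, two-sided and Benjamini-Hochberg adjusted over all genes. Of the 108, 1 rose and 5 fell, where 0.401% of all genes rose and 0.762% fell. Another 7 differed by 2-fold or more in both clones without passing, 4 higher and 3 lower. Passing or not, 5 were at least 2-fold higher and 8 lower, where 1.19% of all genes were higher and 1.81% lower. The spread comes from the 2 clones alone, and 55.5% of all genes have the same value in both, which favours passing.

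Among 26 measured ion channels and transporters that move salt with water or set cell volume, 0 rose and 2 fell. Slc4a4, a sodium bicarbonate cotransporter gene, read 5.82 in clone 10, 5.71 in clone 4 and 9.58 in mock. It fell 14.1-fold (limma adjusted p = 0.0256). Slc9a2, a sodium-proton exchanger gene, read 6.18 in clone 10, 6.11 in clone 4 and 8.09 in mock, and fell 3.84-fold (limma adjusted p = 0.0343). In both genes the clones lay below the array median and mock above it.

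Other members of that list were apart without passing. Ano1, a calcium-activated chloride channel gene, read 9.87 in clone 10, 9.48 in clone 4 and 11.55 in mock, 3.67-fold lower (limma adjusted p = 0.0937). Kcnma1, a potassium channel gene, read 5.76 in clone 10, 5.66 in clone 4 and 6.79 in mock, all below the array medians. It was 2.12-fold lower (limma adjusted p = 0.0668) by its brighter of 2 probe sets. With the mean of both sets its differences were -0.50 in clone 10 and -0.55 in clone 4, under 2-fold, and it passed with the prior from all genes and with an intensity trend (limma adjusted p of 0.0335 to 0.123 over the fits). Trpv4, a cation channel opened by cell swelling, was 2.12-fold higher, at 7.97 in clone 10, 8.04 in clone 4 and 6.92 in mock (limma adjusted p = 0.0593). It passed with a second quantile normalization and with the prior from all genes, over a range of 0.0276 to 0.0643 in the adjusted fits. The list's median difference was 0 in both clones.

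Among 18 transcription factors linked with aquaporin genes in other settings, 1 rose and 3 fell. Foxa1, a pioneer factor of mammary luminal cells, rose 7.73-fold to 9.34 ± 0.20 (SD, n = 2) with MAFK, against 6.39 in mock (limma adjusted p = 0.0439). It did not pass with a second quantile normalization (limma adjusted p = 0.0621) or with the mean of a gene's probe sets (limma adjusted p = 0.0516), over a range of 0.0293 to 0.0621 in the adjusted fits. Hnf4a, a factor of liver, gut and kidney epithelium, fell 8.15-fold, at 7.05 in clone 10, 7.15 in clone 4 and 10.13 in mock (limma adjusted p = 0.0293). Foxa2, another pioneer factor, fell 2.98-fold, reading 7.46 in clone 10 and in clone 4, against 9.04 in mock (limma adjusted p = 0.0351). Nr1h3, the gene of the oxysterol receptor LXR alpha, fell 2.21-fold, just inside the threshold (limma adjusted p = 0.0499), and did not pass with the mean of probe sets (limma adjusted p = 0.0547, with 0.0253 to 0.0547 over the adjusted fits).

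In the remaining lists no gene rose or fell by limma. Over all genes, 17.5% had an unadjusted limma p under 0.05. The ion list had 10 of 26 such genes, the transcription factor list 6 of 18 and the glycerol and urea list 3 of 13. Gpd1, which encodes glycerol-3-phosphate dehydrogenase, read 6.51 in both clones and 7.54 in mock, 2.04-fold lower (limma adjusted p = 0.0557). It passed with a second quantile normalization, with the prior from all genes and with an intensity trend, over a range of 0.0241 to 0.0596 in the adjusted fits. Of 24 anchoring and trafficking genes, 5 had an unadjusted p under 0.05, beside that 17.5%. Adcy7, an adenylyl cyclase gene, was 3.32-fold higher (limma adjusted p = 0.102) and Dtna, a dystrobrevin gene of the complex that anchors Aqp4, 2.21-fold higher (limma adjusted p = 0.0774). Dtna passed with the prior from all genes, over a range of 0.0486 to 0.0908 in the adjusted fits.

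Of 14 genes that make or handle superoxide and peroxide, which some aquaporins pass as hydrogen peroxide, 4 had an unadjusted p under 0.05, beside the same 17.5%. Cyba, the p22phox subunit of NADPH oxidases, read 9.34 in clone 10, 10.16 in clone 4 and 8.29 in mock, 2.75-fold higher (limma adjusted p = 0.264). Of 13 osmotic response genes, among them the tonicity factor gene Nfat5, 0 were 2-fold apart in both clones and 1 had an unadjusted p under 0.05, beside the same 17.5%.

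**Figure D4:**
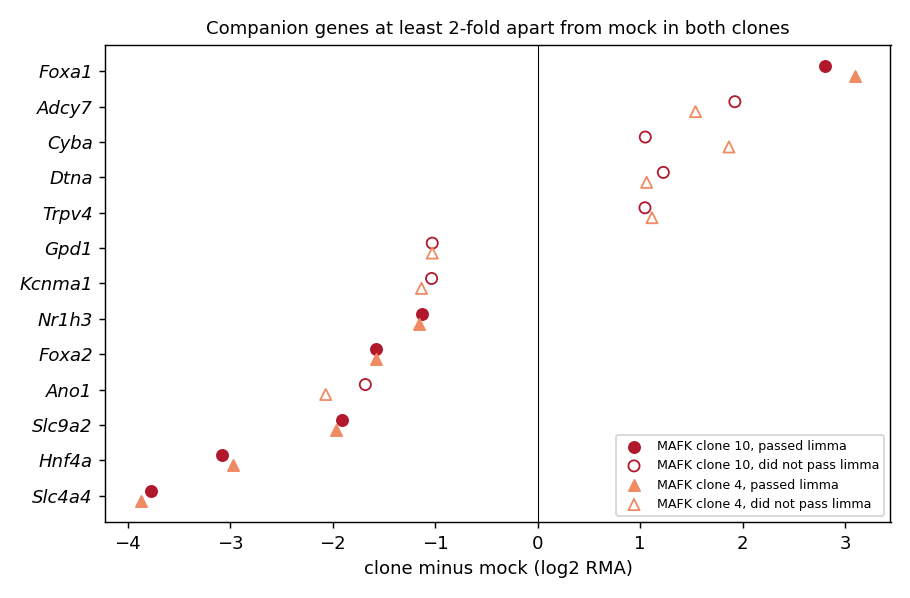
Log2 difference from mock (x axis) of the 13 companion genes that differed by 2-fold or more from mock in each clone, in MAFK clone 10 (circles) and MAFK clone 4 (triangles), filled where limma's adjusted p was under 0.05. Slc4a4, Hnf4a, Slc9a2, Foxa2 and Nr1h3 fell and Foxa1 rose, and the 7 genes with open symbols did not pass.

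Markers of cell types known for aquaporins were set beside these values. Endothelium is rich in Aqp1, and of 10 endothelial markers 9 lay below the array median on each array and 1, the VEGF receptor gene Flt1, above it. Flt1 read 9.18 in clone 10, 9.78 in clone 4 and 7.56 in mock, while Pecam1, at 5.99, and Cdh5, at 6.29, had the same value on all 3 arrays. The summed intensity of the endothelial list was 1237 in clone 10, 1526 in clone 4 and 825 in mock. Without Flt1 the sum of the other 9 was 658 in clone 10, 645 in clone 4 and 637 in mock, a sum added after the values were seen.

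Of 5 measured erythroid markers, 0 were 2-fold apart in both clones, with summed intensities of 433 in clone 10, 435 in clone 4 and 406 in mock. Of 9 leukocyte markers, set beside Aqp9, 0 were higher and 1, S100a8, lower by at least 2-fold in both clones, with sums of 759 in clone 10, 737 in clone 4 and 912 in mock. Of 7 hepatocyte markers, 0 were higher and 1, Apob, lower, with sums of 530 in clone 10, 511 in clone 4 and 992 in mock. Of 7 adipocyte markers, 0 were 2-fold apart, with sums of 549 in clone 10, 540 in clone 4 and 516 in mock. Beside these counts, 3% of all genes were 2-fold apart from mock in both clones, 1.19% higher and 1.81% lower. The part of any other cell type in these values was not tested.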

How the data were processed

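Values were the log2 RMA expression values deposited by the authors, 1 per probe set and array. Per the submitters' processing notes they were made with RMA, no version given, a method of background correction, quantile normalization between arrays and median polish over the probes of a set. Genome build and filters are not given in the sources used here. Of 28815 probe sets, 21780 had 1 gene symbol in the platform annotation, 21689 of them updated by Entrez identifier through the GRCm38.p6 gene table, and the probe set with the highest mean stood for each of 19935 genes. No value was filtered out. Depth does not apply to arrays, and 3 arrays limit the precision.

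Differences from mock were taken per clone. Replicates were the 2 clones. limma 3.58.1 in R 4.3.3 was fitted across all genes, with p-values given in the text for companion genes only and the prior (1.93 degrees of freedom, SD 0.0694) estimated from the 8873 genes whose clones differed. The fit was tested on simulated data. There the noise of mock was drawn from the spread of the clones, and genes equal in both clones had none. The simulation therefore cannot show how the fit fares with an unknown spread among mock cultures. A named gene is an aquaporin, a companion gene 2-fold apart in both clones, or 1 of the 5 genes nearest to Aqp1 or Aqp9 where predicted genes, odorant and vomeronasal receptors, small RNAs and segments of immune receptors were left out. Any other gene was named with its values known. The members, lists and fit were chosen with earlier results of these data known. Alternatives were another normalization, probe set rule, filter, fold and prior.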

Additional observations from a re-analysis of the deposited data

How the results depend on the processing

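Only Aqp1 was 2-fold apart from mock in both clones, and only Aqp9 between the clones, with a second quantile normalization, with the mean or median of probe sets, with low genes left out and at 3-fold. At 1.5-fold 2 aquaporins were apart from mock in both clones, Aqp1 and Aqp5. Without 1 clone the count was 1 to 2, and Aqp9 joined when clone 4 was used alone. Of all genes, 1230 were apart from mock in both clones at 1.5-fold and 287 at 3-fold, against 598 at 2-fold, and without 1 clone 715 to 753. Between the clones 291 genes were apart at 1.5-fold and 15 at 3-fold, against 88. Companion genes that rose or fell by limma numbered 6 in the main fit and 4 with the mean of probe sets (0 rose, 4 fell). They numbered 7 with a second quantile normalization, 8 with an intensity trend, 10 with the prior from all genes and 13 at an unadjusted p. Over all genes, 80 rose and 152 fell in the main fit, and 61 rose and 128 fell with the mean of probe sets. With a second quantile normalization 66 rose and 159 fell, and with an intensity trend 109 rose and 210 fell. With the prior from all genes 128 rose and 232 fell, and at an unadjusted p 231 rose and 349 fell. With a second quantile normalization the mean differences of Aqp3, Aqp4, Aqp7, Aqp8 and Aqp11 moved by more than the SD of the clones. For Aqp4, Aqp7 and Aqp8 that SD was 0, so a change of any size counted as a move. No aquaporin at least 2-fold apart changed sign. Aqp9 was 0.51 above mock on the log2 scale by clone 10 alone and 2.36 by clone 4 alone. The aquaporins had 1 probe set each, so the probe set rule could not move them. With low genes left out 3 of the 8 aquaporins remained. limma without 1 clone has no residual degrees of freedom and was not run. No paired analysis was possible because the groups share no replicate numbers. With a single mock array the spread among mock cultures cannot be given.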
